A study of Mus musculus with 4 samples.

Results

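Cholesterol synthesis and sterol sensing genes were measured in RAW264.7 cells, a mouse macrophage line, kept for 4 days in normoxia (NC), in normoxia with IL6 (NC+IL6), in hypoxia (HC) or in hypoxia with IL6 (HC+IL6). Hypoxia was 1% oxygen, IL6 was given at 25 ng/ml, and each condition was hybridized to 1 Affymetrix mouse array. The cells are a clonal, virus-transformed line and no primary macrophages, and the oxygen level of normoxia was not stated. The list holds 31 genes that encode the enzymes of the pathway, the proteins that sense sterols and proteins that move or store cholesterol. Its members were picked by gene function, with earlier results of these arrays known. Of the 31 genes, 29 had at least 1 probe set, a group of short probes for 1 transcript, that the annotation assigns to that gene alone, out of 18194 such genes on the arrays. The 29 genes were covered by 64 probe sets. Acat2 and Soat1 were not analysed here, nor was 1 probe set that is listed for Mbtps2 together with other genes.

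Cholesterol is made from acetyl-CoA through mevalonate, which also feeds the isoprenoids, and then through squalene and lanosterol. The pathway consumes molecular oxygen at several of its late steps. It is controlled by SREBP2, a transcription factor held in the endoplasmic reticulum by SCAP and the INSIG proteins when sterols are plentiful. When sterols run low, SCAP escorts SREBP2 to the Golgi, where a pair of proteases release its active part, and that part turns on the genes of synthesis. Macrophages take up much cholesterol from the material they engulf and balance it by storage and export.

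Signals are on the log2 scale and were summarized with MAS5, in which the probes of each set are corrected for local background and then averaged robustly. To mark which signals exceed background, a floor was taken per array from 97 probe sets whose genes are restricted to other tissues, at their 95th percentile. These floors were 6.53 (NC), 6.54 (NC+IL6), 6.54 (HC) and 6.04 (HC+IL6). Higher or lower is used for a gene with at least 1 of the 2 compared arrays above the floor and a difference of 2-fold or more, which is 1 on the log2 scale. A dimmer signal under its floor was first raised to that floor. A gene with several probe sets was represented by the brightest. With 1 array per condition there is no replicate and no test, and no difference below can be set against the spread between cultures. In HC against NC, log2 ratios of probe sets of the same gene differed with a pooled SD of 0.34. This was over 3812 genes with several probe sets above all floors, and the SD was 0.43 over the 15 such genes of the list. It describes the spread between probe sets on the same arrays, and not the error of a ratio. All 29 genes were above the floor on all 4 arrays.

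The labels were checked against marker genes. Of 10 macrophage markers 9 were above the floor on all arrays, with a summed log2 signal between 16.93 and 17.11, while 2 of 17 markers of other cell types (Col1a2 and Epcam) passed the floor on any array. Among 20 targets of the hypoxia-inducible factors, 15 were higher in HC than in NC, and among 11 IL6 and STAT3 targets above the floor 7 were higher in NC+IL6 than in NC. Of the 20 hypoxia targets 9 were also higher in NC+IL6 than in NC. Beta-actin probes at the 3′ end exceeded those at the 5′ end, a sign of RNA breakdown, by a log2 difference of 0.62 (NC), 0.49 (NC+IL6), 0.79 (HC) and 0.69 (HC+IL6). This difference was larger on both hypoxia arrays, whereas the same difference for Gapdh was negative on every array and lower on the hypoxia arrays, at -0.10 (NC), -0.10 (NC+IL6), -0.20 (HC) and -0.19 (HC+IL6). Their part in the results was not tested.

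**Figure D1:**
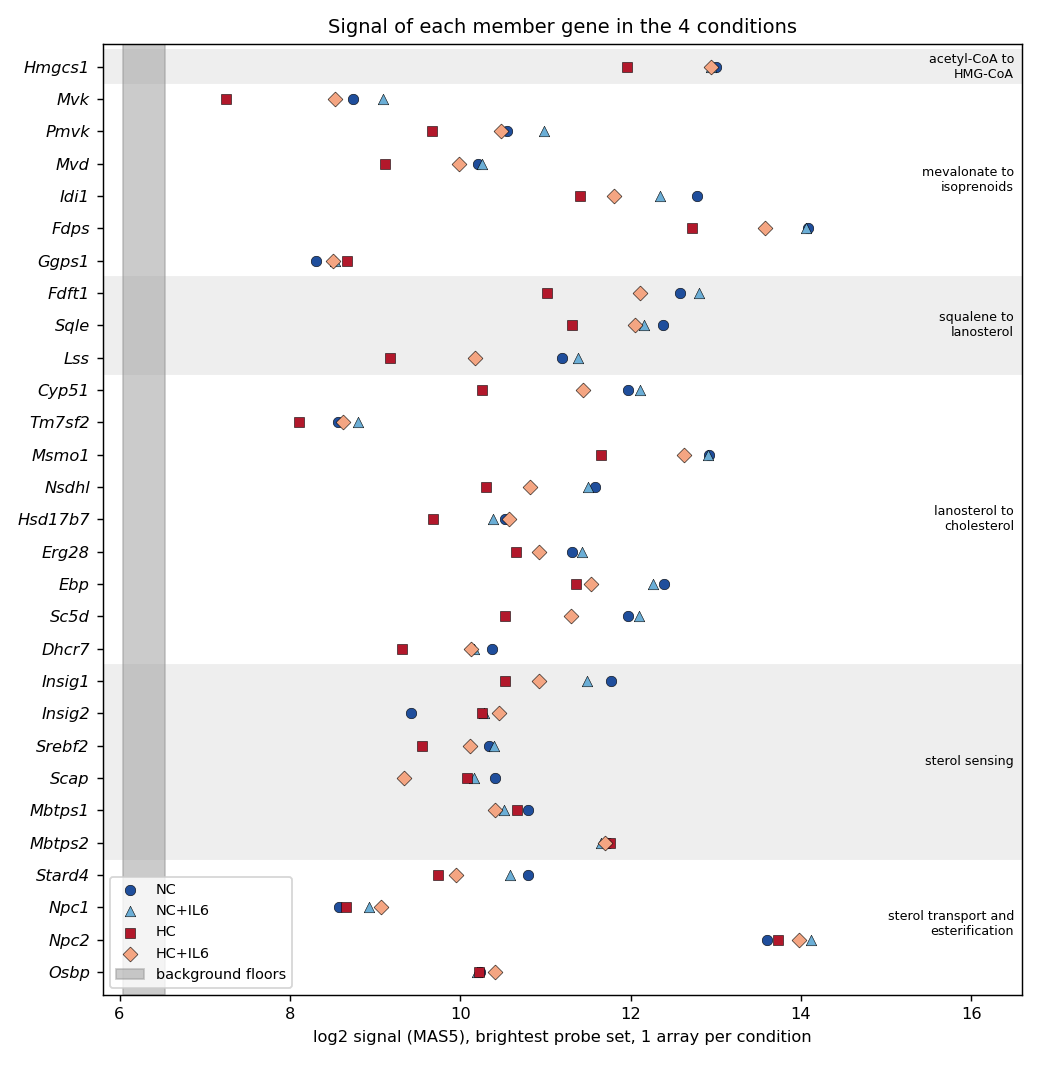
Log2 signal of the 29 measured genes on the 4 arrays, ordered by step of the pathway, 1 point per array, with the range of the background floors in grey. HC (red squares) is the lowest point for 21 of the 29 genes, while NC and NC+IL6 lie close together.

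Hypoxia without IL6 was accompanied by lower signal along nearly the whole pathway. Of the 29 genes, 16 (55.2%) were at least 2-fold lower in HC than in NC, and 0 were higher. Among all 9690 genes above the floor in this comparison, 1.07% were lower and 3.83% were higher by the same rule. The median log2 ratio of the 29 genes was -1.05, against 0.05 for all genes. The genes of the synthesis steps, which are enzymes and the scaffold Erg28, made up 14 of the 16, with a median of -1.09 over 19 genes. The other 2 were Insig1 and Stard4, among 10 genes of sensing and transport with a median of -0.06. Of the genes called, those nearest the 2-fold limit were Ebp, Hmgcs1 and Stard4, and the nearest gene under it was Pmvk.

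With IL6 present, the same comparison gave a smaller difference. In HC+IL6 against NC+IL6, 1 of the 29 genes (Lss) was 2-fold lower and 0 were higher, against 1.53% and 2.8% of 10390 genes. The median was -0.29, against 0.00 for all genes. It was -0.11 when all probe sets of a gene were averaged. Over those above the floor it was -0.18, and without those ending in x, s or a it was -0.14. Lss was not 2-fold lower under any of these settings, and with all probe sets averaged the 1 lower gene was Fdft1. Both hypoxia comparisons were negative for 22 of the 29 genes (75.9%), where 33.6% of all genes were, and these comparisons share no array. This counts ratios near 0, such as -0.01 for Hmgcs1 with IL6. With IL6, 21 of the 29 genes were under 1.5-fold either way. The log2 ratio with IL6 minus that without IL6 was above 0 for 25 of the 29 genes and above 0.5 for 16 of them, where 49.8% and 8.34% of all genes were. Its median was 0.59 for these genes and -0.00 for all genes. A lower HC array alone raises this difference, so it is not an observation separate from the negative ratios in HC against NC.

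IL6 alone was accompanied by little difference in normoxia. In NC+IL6 against NC, 0 of the 29 genes passed 2-fold either way, where 3.57% of 9512 genes were higher and 1.15% were lower. The median was -0.01, against -0.03 for all genes. In hypoxia, HC+IL6 against HC gave 3 higher genes (Mvk, Cyp51 and Fdft1) and 0 lower, where 2.42% and 2.2% of 10453 genes were called. The count was 1 with all probe sets of a gene averaged and 5 without those ending in x, s or a. The median was 0.52, against -0.01 for all genes, and 25 of the 29 log2 ratios were positive. A lower HC array enters both this comparison and that of HC with NC, so the positive ratios here and the negative ratios there are not separate observations. Of the 29 genes 21 (72.4%) had their lowest signal in HC, where 22.6% of all genes above the floor did.

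**Figure D2:**
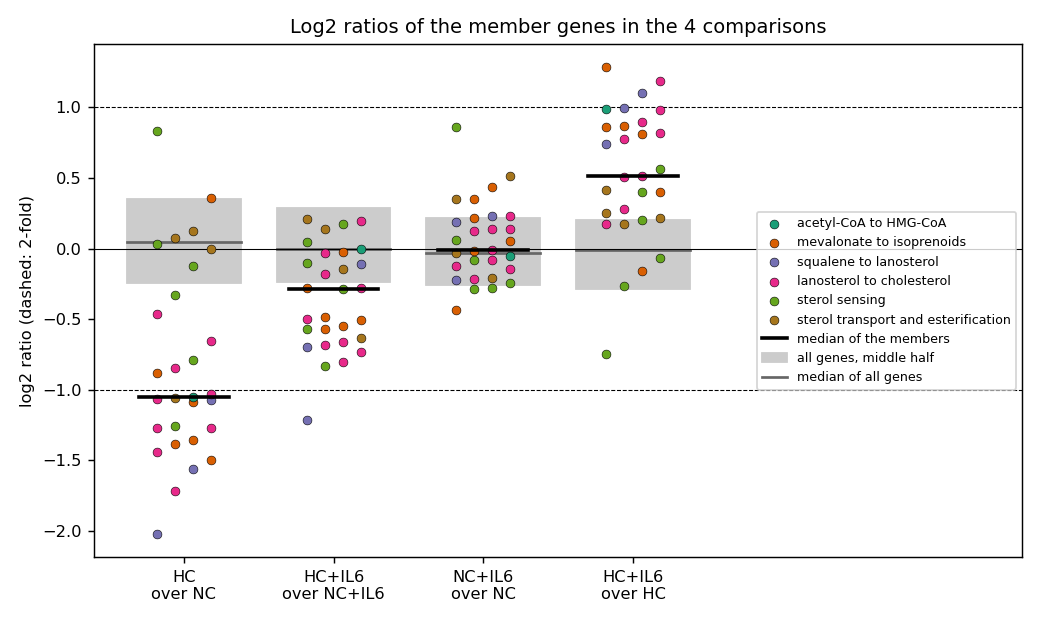
Log2 ratio of each of the 29 genes in the 4 comparisons, coloured by step, with black bars at their medians (-1.05, -0.29, -0.01 and 0.52). Grey boxes span the interquartile range of all genes above the floor and grey lines mark their medians. The points lie mostly under the grey box in HC over NC and mostly above it in HC+IL6 over HC.

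The first step was represented by Hmgcs1, the synthase that joins acetyl-CoA and acetoacetyl-CoA into HMG-CoA. Its log2 signal was 13.00 (NC), 12.95 (NC+IL6), 11.95 (HC) and 12.94 (HC+IL6). HC stood alone, 2.07-fold under NC, while the other arrays lay together. The hypoxia log2 ratio was -1.05 without IL6 and -0.01 with it. Signal in HC+IL6 was 1.98-fold above HC, just under the 2-fold limit. Its 4 probe sets above the floor on all arrays lay between -1.02 and -1.17 in HC against NC, while with IL6 they ran from -0.05 to 0.19.

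The mevalonate segment held the kinases Mvk and Pmvk, the decarboxylase Mvd, the isomerase Idi1 and the prenyl synthases Fdps and Ggps1. Mvk, which phosphorylates mevalonate, had a log2 signal of 8.75 (NC), 9.10 (NC+IL6), 7.25 (HC) and 8.53 (HC+IL6). It was 2.83-fold lower in HC than in NC, the largest fold of the segment, and 2.43-fold higher in HC+IL6 than in HC. Pmvk, the next kinase, had 10.55, 10.98, 9.66 and 10.48 on the arrays in the same order, and at 1.84-fold in HC against NC it stayed under the limit. Mvd, which forms isopentenyl diphosphate, had 10.20, 10.26, 9.12 and 9.98, and was 2.13-fold lower in HC. Idi1, which converts that product to its isomer, had 12.78, 12.35, 11.40 and 11.80. It was 2.61-fold lower in HC than in NC, and its HC+IL6 signal stayed 1.46-fold under NC+IL6. Fdps, which makes farnesyl diphosphate, the last intermediate shared by sterols and other isoprenoids, was the brightest of the enzymes, at 14.08, 14.06, 12.72 and 13.58. It was 2.56-fold lower in HC, and NC and NC+IL6 differed by 0.02. In these genes, HC was the lowest array throughout.

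Ggps1, which extends farnesyl to geranylgeranyl diphosphate for protein prenylation and so leads away from cholesterol, was the exception among the enzymes. Its log2 signal was 8.31 (NC), 8.53 (NC+IL6), 8.67 (HC) and 8.50 (HC+IL6), so that HC was its highest array. The log2 ratio was 0.36 in HC against NC and -0.02 with IL6. Its 3 probe sets above the floor on all arrays disagreed in HC against NC, from -0.50 to 0.36, with 2 positive and 1 negative. On a list of 14 other genes that use isoprenoids for prenylation, dolichol or ubiquinone, 0 were higher and 0 were lower in any of the 4 comparisons, and their median in HC against NC was -0.06.

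The 3 enzymes that lead from farnesyl diphosphate to lanosterol were all lower in HC. Fdft1, squalene synthase, the first enzyme committed to sterols, had a log2 signal of 12.58 (NC), 12.81 (NC+IL6), 11.01 (HC) and 12.11 (HC+IL6). HC was 2.95-fold under NC and HC+IL6 was 2.14-fold above HC. Sqle, squalene epoxidase, an oxygen-using and rate-limiting enzyme, had 12.38, 12.16, 11.31 and 12.05. It was 2.10-fold lower in HC, and with IL6 the hypoxia log2 ratio was -0.11. Lss, lanosterol synthase, which closes the sterol rings, had 11.20, 11.38, 9.17 and 10.17. It was 4.06-fold lower in HC than in NC and, with IL6, 2.32-fold lower in hypoxia than in normoxia, the largest difference of the 29 genes in both comparisons. In the brightest probe sets of all 3 enzymes, both hypoxia arrays lay under both normoxia arrays. In the next probe set of Lss, HC+IL6 (8.67) lay above NC+IL6 (8.41).

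From lanosterol onward, 6 of 9 genes were 2-fold lower in HC, the log2 ratio was negative for all 9, and its median was -1.07. Cyp51, the oxygen-using demethylase that acts first on lanosterol, had a log2 signal of 11.97 (NC), 12.10 (NC+IL6), 10.25 (HC) and 11.44 (HC+IL6). It was 3.29-fold lower in HC than in NC and 2.28-fold higher in HC+IL6 than in HC. The oxygen-using methyl oxidase Msmo1 had 12.92, 12.91, 11.65 and 12.63, and was 2.41-fold lower in HC. Nsdhl, the dehydrogenase that follows it, had 11.58, 11.50, 10.31 and 10.81, and was likewise 2.41-fold lower, but its HC+IL6 signal stayed 1.61-fold under NC+IL6. The last oxygen-using enzyme of the list, the desaturase Sc5d, had 11.96, 12.10, 10.52 and 11.30. It was 2.72-fold lower in HC and 1.75-fold lower when HC+IL6 was set against NC+IL6. For these genes the order of the arrays was HC, then HC+IL6, then the pair of normoxia arrays.

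The terminal reductase Dhcr7 had a log2 signal of 10.38 (NC), 10.16 (NC+IL6), 9.31 (HC) and 10.13 (HC+IL6). It was 2.09-fold lower in HC, while with IL6 the hypoxia log2 ratio was -0.03. The isomerase Ebp had 12.39, 12.27, 11.36 and 11.53, and was 2.04-fold lower in HC and 1.66-fold lower with IL6. These late enzymes thus differed in the difference between their hypoxia log2 ratios, which was 1.04 for Dhcr7 and 0.30 for Ebp. Hsd17b7, a ketosteroid reductase, had 10.53, 10.38, 9.68 and 10.57, with a hypoxia log2 ratio of -0.85 without IL6 and 0.19 with it. Erg28, a scaffold that tethers enzymes of sterol demethylation, had 11.31, 11.43, 10.65 and 10.93. Tm7sf2, a sterol reductase whose step is shared with another enzyme, was dim, at 8.57, 8.80, 8.10 and 8.62. Both were under 2-fold in HC against NC, at log2 ratios of -0.66 and -0.46.

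The enzymes that use molecular oxygen did not stand clearly apart from the rest. All 4 of them (Sqle, Cyp51, Msmo1 and Sc5d) were 2-fold lower in HC, with a median log2 ratio of -1.36 between -1.07 and -1.72. Of the other 15 genes of the synthesis steps 10 were lower, with a median of -1.07 between -2.02 and 0.36. With IL6 the medians were -0.47 and -0.50. The ranges overlapped in both comparisons.

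**Figure D3:**
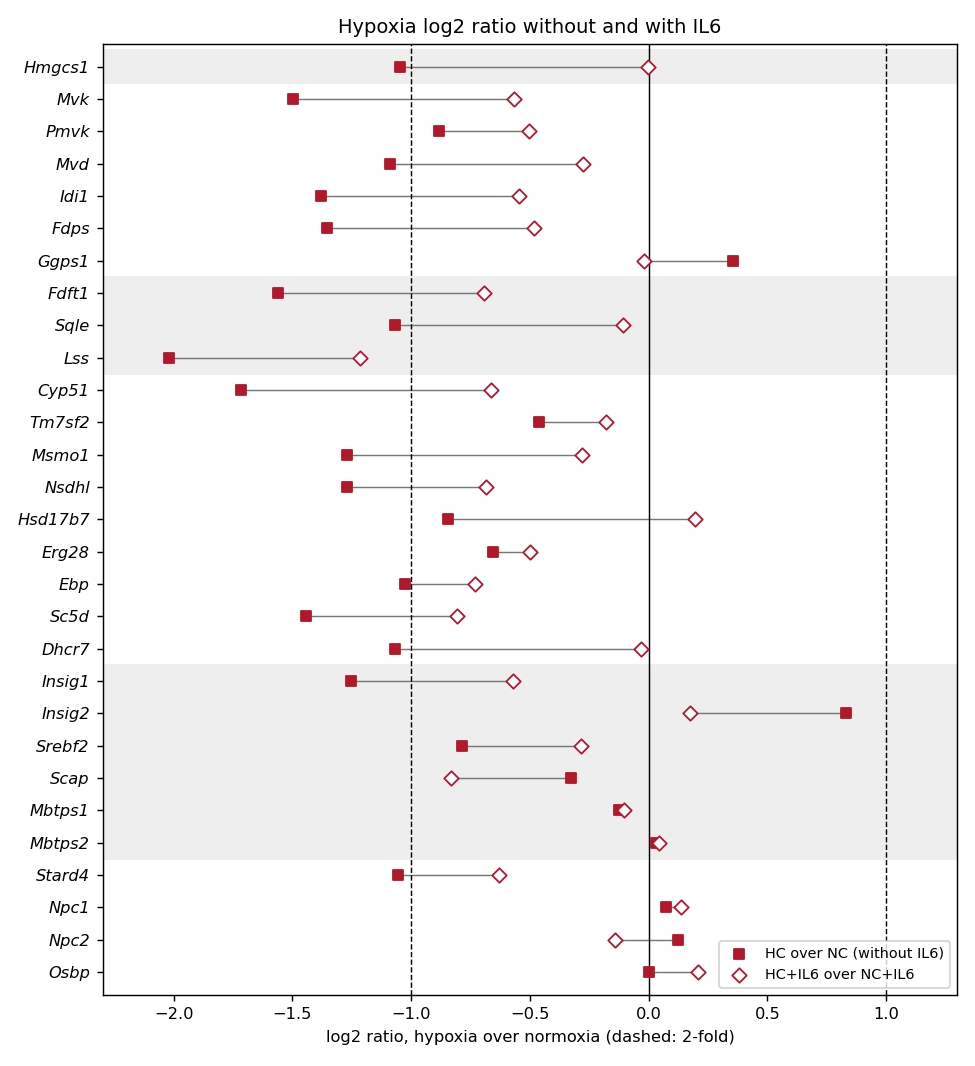
Log2 ratio of hypoxia over normoxia for each gene, without IL6 (filled squares) and with IL6 (open diamonds), 1 array per condition, with dashed lines at 2-fold. The open diamond lies nearer to 0 for most enzymes, and Lss is the gene whose diamond lies past the dashed line.

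The letters CCAAT and GGGCGG were common in promoters across the list, in genes that were lower in HC and in others. RefSeq windows on the GRCm38.p6 build, from 250 bases before the transcription start to 50 after it, were given for 26 of the 31 genes. The letters CCAAT, the box bound by NF-Y, a factor that works together with SREBP, were found on either strand in all 12 of the genes lower in HC that had a window. They were found in 21 of the 26 genes with a window and in 8 of 12 measured genes that were not lower. The share was 43.0% among 8661 genes above the floor. Dhcr7 has several annotated starts, and its match lies at 1 of them. Among genes with a single window the counts were 11 of 11, against 39.5% of 6897 genes above the floor. The Sp1 letters GGGCGG were also in all 12, in 23 of the 26 and in 9 of 12 genes that were not lower. They were in 69.1% of genes above the floor. The core TCACNCCAC of the sterol regulatory element, which binds SREBP, was found in Hmgcs1 alone, against 1.43% of genes above the floor. Searches used both strands and these exact letters, and a match is not evidence of binding.

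Below are the windows of 3 genes that were lower in HC, chosen as the gene with the sterol element, the gene with the largest fold and the sterol sensor. The window of Mbtps1 is added, a gene of the same pathway with no CCAAT box and little difference in its brightest probe set. Each runs 5′ to 3′ on the strand of the gene, and capitals mark TCACNCCAC and CCAAT or its reverse complement. Hmgcs1 lies on the plus strand at chr13:119690101-119690400, Lss on the plus strand at chr10:76531355-76531654, Insig1 on the plus strand at chr5:28071162-28071461 and Mbtps1 on the minus strand at chr8:119558712-119559011.
Hmgcs1: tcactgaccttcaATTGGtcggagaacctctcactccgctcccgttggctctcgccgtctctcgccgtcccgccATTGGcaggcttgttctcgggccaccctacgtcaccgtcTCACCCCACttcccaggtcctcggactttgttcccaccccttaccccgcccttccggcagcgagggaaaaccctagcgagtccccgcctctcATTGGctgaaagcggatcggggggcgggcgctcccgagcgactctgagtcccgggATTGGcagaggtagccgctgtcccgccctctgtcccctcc
Lss: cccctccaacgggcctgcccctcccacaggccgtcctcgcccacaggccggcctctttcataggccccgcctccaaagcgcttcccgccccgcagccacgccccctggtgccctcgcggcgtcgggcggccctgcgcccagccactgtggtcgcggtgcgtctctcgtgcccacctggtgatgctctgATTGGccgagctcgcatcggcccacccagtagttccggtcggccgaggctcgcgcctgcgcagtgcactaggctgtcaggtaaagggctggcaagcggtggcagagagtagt
Insig1: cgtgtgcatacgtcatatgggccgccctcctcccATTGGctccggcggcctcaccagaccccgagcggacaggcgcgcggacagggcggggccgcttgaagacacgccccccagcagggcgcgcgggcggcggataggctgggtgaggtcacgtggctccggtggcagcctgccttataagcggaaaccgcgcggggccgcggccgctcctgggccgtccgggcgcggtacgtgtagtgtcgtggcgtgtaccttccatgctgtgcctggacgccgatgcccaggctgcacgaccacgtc
Mbtps1: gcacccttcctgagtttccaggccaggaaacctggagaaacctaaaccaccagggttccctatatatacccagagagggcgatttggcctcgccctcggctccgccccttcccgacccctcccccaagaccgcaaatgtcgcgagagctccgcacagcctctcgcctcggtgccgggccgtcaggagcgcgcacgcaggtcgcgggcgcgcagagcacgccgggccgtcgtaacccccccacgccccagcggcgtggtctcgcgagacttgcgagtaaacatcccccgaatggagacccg

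Hmgcs1 carried 4 CCAAT boxes besides the sterol element, while Lss and Insig1 carried 1 each and Mbtps1 none. Mvk had 5 CCAAT boxes, as did Osbp, whose signal in HC and NC differed by 0.00. Presence of the box thus did not separate the genes that were lower from those that were not.

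**Figure D4:**
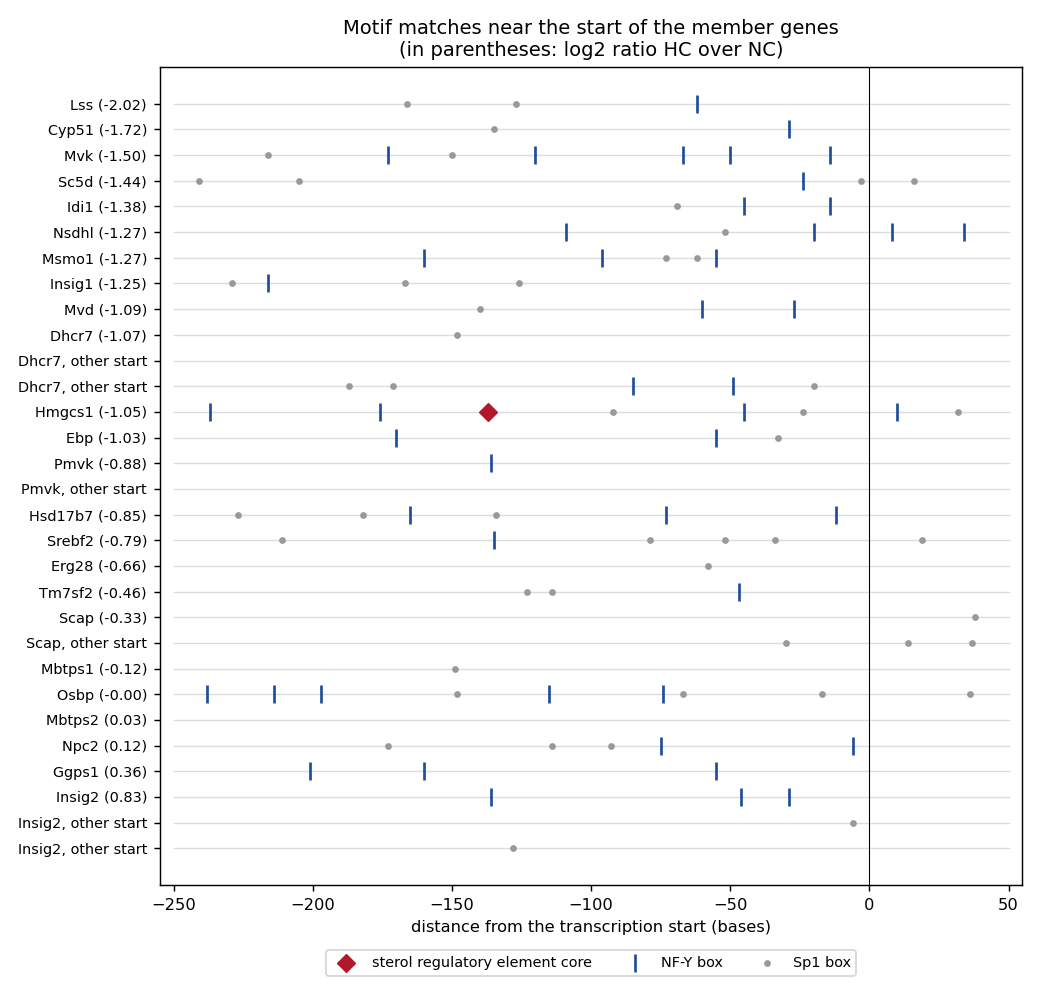
Matches of the 3 motifs by distance from the transcription start, 1 row per RefSeq start of each measured gene, ordered by the HC over NC log2 ratio in parentheses. Blue bars (NF-Y box) occur in every gene from Lss down to Hmgcs1 and Ebp, and the single red diamond (sterol element) lies in Hmgcs1.

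Among the sterol sensors, the paralogs Insig1 and Insig2 had HC over NC log2 ratios of opposite sign. Both encode membrane proteins that retain SCAP and SREBP in the endoplasmic reticulum, and Insig1 is itself a known SREBP target. Insig1 had a log2 signal of 11.77 (NC), 11.49 (NC+IL6), 10.52 (HC) and 10.92 (HC+IL6), and was 2.38-fold lower in HC. Insig2 had 9.42, 10.28, 10.25 and 10.45, so that NC was its lowest array. Relative to NC, its signal was 1.78-fold greater in HC and 1.81-fold greater in NC+IL6, both under the limit. Of its 3 probe sets, 2 were positive in HC against NC (0.83 and 0.64) and 1 was negative (-0.26), while all 3 were positive in NC+IL6 against NC. Insig1 has a single probe set here.

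Srebf2, which encodes SREBP2, had a log2 signal of 10.33 (NC), 10.40 (NC+IL6), 9.55 (HC) and 10.11 (HC+IL6). It was 1.73-fold lower in HC, under the limit, with HC again the lowest array in this brightest probe set. In its other probe set NC+IL6 was the lowest, at 7.99, while HC and HC+IL6 were both at 8.34. Scap, the escort of SREBP2, had 10.41, 10.17, 10.08 and 9.33. In contrast to the enzymes its lowest array was HC+IL6, 1.78-fold under NC+IL6 and 1.68-fold under HC. By their brightest probe sets, the proteases that release SREBP2 varied little. Mbtps1, the protease that cuts first, had 10.79, 10.51, 10.67 and 10.40, and Mbtps2, which cuts second, had 11.73, 11.65, 11.76 and 11.69. However, the 3 probe sets of Mbtps1 above all floors disagreed in HC against NC, at -0.12, 0.37 and -0.83. With IL6 all 3 were negative. The 4 signals of Mbtps2 spanned 0.11, the smallest span of the 29 genes.

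Of the genes for sterol transport, Stard4 alone followed the enzymes, by its brightest probe set. Stard4, a cytosolic carrier of cholesterol, had a log2 signal of 10.80 (NC), 10.59 (NC+IL6), 9.74 (HC) and 9.95 (HC+IL6), and was 2.08-fold lower in HC. In this probe set both hypoxia arrays lay under both normoxia arrays. In its other probe sets NC+IL6 was the lowest array, at 9.87 and 9.31, under HC at 9.98 and 9.73. Npc1 and Npc2, which together export cholesterol from lysosomes, had log2 ratios of 0.07 and 0.12 in HC against NC. Npc2 was among the brightest genes of the list, at 13.61, 14.12, 13.73 and 13.98, and Npc1 had 8.58, 8.93, 8.66 and 9.07. Osbp, an exchanger of sterols at membrane contacts, had 10.23, 10.20, 10.23 and 10.40. None of these 3 genes differed by 1.5-fold in any of the 4 comparisons.

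Probe sets of the same gene disagreed in sign least often in HC against NC, but by more than 2-fold most often there. Of the 64 probe sets, 58 were above the floor on at least 1 array and 53 on all 4. In the 15 genes with several probe sets above all floors, signs differed within 3 genes in HC against NC, within 7 in HC+IL6 against NC+IL6, within 8 in NC+IL6 against NC and within 4 in HC+IL6 against HC. The log2 ratios spanned more than 2-fold within 4 genes in HC against NC and within 3 in HC+IL6 against NC+IL6. They did so within 0 genes in NC+IL6 against NC and within 1 in HC+IL6 against HC. Over these genes, the brightest had a median log2 ratio of -1.06 in HC against NC and the 24 others -0.49, of which 19 were negative. With IL6 these medians were -0.28 and -0.05, and 13 of the 24 were negative. Over all genes the corresponding medians were 0.00 for the brightest and 0.07 for the others in HC against NC, so the dimmer probe sets of the cholesterol genes were less negative.

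Lss had the widest split among probe sets above all floors, with -2.02, -1.34 and -0.44 in HC against NC, and -1.21, 0.25 and -0.31 with IL6. Its call in HC+IL6 against NC+IL6 therefore rests on the brightest probe set. For Sc5d the brightest gave -1.44 and the next -0.32 in HC against NC, and -0.81 and 0.20 with IL6. The 3 probe sets of Stard4 gave -1.06, -0.49 and -0.43 in HC against NC, and -0.63, 0.45 and 0.60 with IL6. Stard4 was thus negative in every probe set without IL6, and of either sign with it. Msmo1 gave -1.27 and -0.66 without IL6 and -0.28 and 0.47 with it, and Srebf2 gave -0.79 and -0.40, then -0.29 and 0.35. By contrast, the probe sets above all floors nearly coincided in HC against NC for Fdft1, Idi1 and Mvd, whose log2 ratios spanned 0.02, 0.05 and 0.06.

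**Figure D5:**
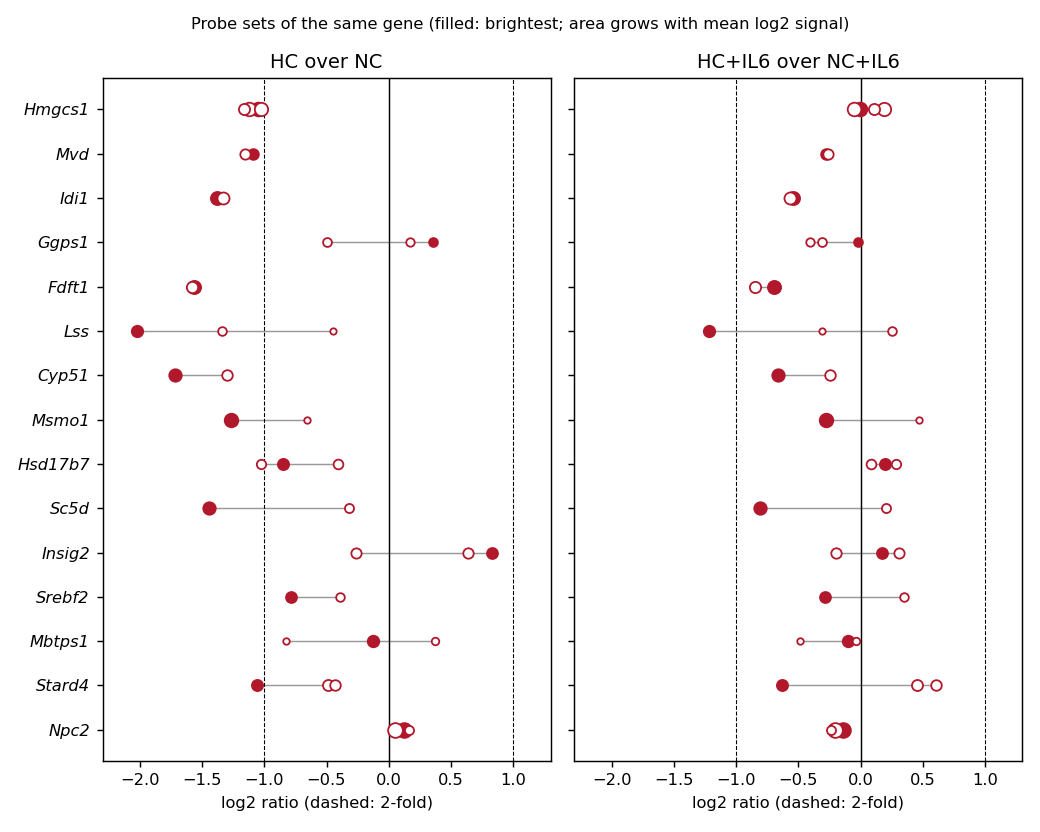
Log2 ratios of the probe sets above the floor on all 4 arrays, for the 15 genes with several, in HC over NC (left) and HC+IL6 over NC+IL6 (right). The brightest probe set is filled. Without IL6 the points lie left of 0 for most enzymes, and with IL6 several genes, such as Lss, Sc5d and Stard4, have points on both sides.

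Genes of fatty acid synthesis, which are controlled by the related factor SREBP1, also had negative hypoxia ratios. In HC against NC 3 of 18 were lower and 0 were higher, with a median of -0.62 and 17 negative log2 ratios. With IL6 1 of 18 was lower and the median was -0.28, near the -0.29 of the cholesterol genes. In HC+IL6 against HC their median was 0.11, and 2 were higher. Targets of LXR, the sterol-activated receptor that drives cholesterol export, had a median of 0.21 over 7 genes in HC against NC, with 0 called either way. In HC+IL6 against HC 2 of 7 were lower and 0 were higher, with a median of -0.47, the opposite sign to the cholesterol genes. With IL6 on both arrays, 1 of 7 was lower in hypoxia and the median was -0.28, near that of the cholesterol genes. Differences between these lists were not tested.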

How the data were processed

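Total RNA of RAW264.7 cells from 4 conditions was hybridized to 1 Affymetrix mouse array each, and samples were grouped by their titles. The authors deposited 1 table of log2 signals for 45101 probe sets, summarized with MAS5 (version not given in the sources used here). Each array had been scaled, as the values show, to a mean signal of 500 after trimming 2% at each end, and signals of 1 or less are listed at 0. The genome build behind the annotation is likewise not given.

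Folds and log2 ratios were obtained from the deposited log2 signals in Python 3.11.15 (pandas 2.3.3, numpy 2.4.6), with plots by matplotlib 3.10.9. Of the probe sets, 34958 carry 1 gene symbol, 932 carry several and 9211 are not listed in the annotation used. Gene numbers of 34754 were matched to RefSeq (GRCm38.p6), which updated 0 symbols. The floor came from 60 genes of a list of 66. Scaling (quantile and cyclic loess, limma 3.58.1 in R 4.3.3), the choice among probe sets, the floor, an added background and a limit of 1.5-fold were tried as alternatives. The number of arrays limits the precision. Functions were tested on simulated data. All 31 genes of the list are described, apart from those with no probe set of their own. The members and lists were chosen with earlier results of these data known.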

Additional observations from a re-analysis of the deposited data

How the results depend on the processing

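The median in HC against NC stayed negative under every alternative run, as did that in HC+IL6 against NC+IL6, and the median in HC+IL6 against HC and that of the difference between hypoxia ratios stayed positive. In HC against NC the median was -0.96 after quantile normalization, -0.97 after cyclic loess, -0.77 with the mean of all probe sets of a gene, -0.88 with the mean of those above the floor and -0.83 with the dimmest above all floors, which was chosen after seeing the data. In HC+IL6 against NC+IL6 it was -0.11, -0.18 and -0.14 with the mean of all probe sets, the mean of those above the floor and without those ending in x, s or a. In HC+IL6 against HC it was 0.58 after quantile normalization and 0.41 with the mean of all probe sets. In NC+IL6 against NC it was -0.076 with the mean of all probe sets, -0.079 with the mean of those above the floor and -0.081 with the dimmest. It was positive, at 0.029 and 0.028, after quantile normalization and cyclic loess, so its sign depended on the processing.

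The count of lower genes in HC against NC lay between 12 and 20. It was 20 at 1.5-fold, where 670 of 9690 genes were lower. The count of 1 lower gene in HC+IL6 against NC+IL6 became 0 with the mean of probe sets above the floor and with the dimmest. It was also 0 without probe sets ending in x, s or a. With the mean of all probe sets it stayed at 1, with Fdft1 in place of Lss. At 1.5-fold it was 8 (Lss, Scap, Sc5d, Ebp, Fdft1, Nsdhl, Cyp51 and Stard4), where 703 of 10390 genes were lower. The 3 higher genes in HC+IL6 against HC became 1 with the mean of all probe sets and 5 without those ending in x, s or a. At 1.5-fold 13 were higher and 1 was lower, where 788 and 952 of 10453 genes were. Single higher genes appeared at 1.5-fold in HC against NC (1) and NC+IL6 against NC (1), where 1265 of 9690 and 834 of 9512 genes were higher. With the mean of all probe sets they appeared in HC+IL6 against NC+IL6 (1, Fdps) and NC+IL6 against NC (1, Npc2). In each of these 2 genes the mean includes a probe set under the floor on every array, with a log2 ratio of 3.29 (Fdps) and 3.43 (Npc2). Of all calls in HC against NC, 78.1% were higher, and 56.7% after quantile normalization and 60.4% after cyclic loess. In HC+IL6 against NC+IL6 these shares were 64.7%, 42.6% and 42.5%. The cause was not tested. With 1 array per condition, no array could be left out, and no paired analysis was possible because no condition has a replicate. All 29 genes lay above the floor, and with the floor raised by 1 the count of 3 became 2, since Mvk in HC lies near background.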
